A study of Mus musculus with 8 samples.

Results

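Fibroblast growth factors (FGFs) are secreted signalling proteins that act on neighbouring cells through 4 tyrosine kinase receptors, FGFR1 to FGFR4, together with heparan sulfate chains on the cell surface. Bound receptors recruit adaptor proteins and start the RAS and ERK kinase cascade, which switches on target genes and also inhibitors that damp the signal. In the developing gut, ligands made in the mesenchyme and ligands made in the epithelium act across the border between these layers. The 10 genes described here are 6 genes of the FGF ligand family (Fgf2, Fgf7, Fgf9, Fgf10, Fgf13 and Fgf18) and the 4 receptor genes (Fgfr1, Fgfr2, Fgfr3 and Fgfr4). They were taken by name from the 46635 gene rows of the deposited table, and all 10 were found.

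The samples were small-intestinal mesenchyme of wild-type mice, 4 libraries from pups at postnatal day 14 (P14) and 4 from fetuses at embryonic day E17.5 (E17 in the age label). The epithelium had been stripped with EDTA before RNA was extracted, and no animal carried an induced mutation or was given an agent. The study's question was how the gut lengthens between these ages, with alternative splicing in view. A table with a single value per gene shows no splice forms, so the epithelial and mesenchymal forms of FGFR1, FGFR2 and FGFR3, which come from alternative exons, cannot be told apart. Nothing in the labels says whether a replicate was an animal or a pool, so each p-value reflects the spread among these libraries and no more, and that spread may be technical.

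Between 16660998 and 19496632 reads per library were assigned to genes. The level of a gene is given as FPKM, in which reads are divided by the length of the gene and the size of the library. P14 replicate 1 stood apart from the other P14 libraries. The FPKM of its 16 pan-epithelial markers summed to 6146, against 151, 834 and 295 in P14 replicates 2, 3 and 4, and 37.6 to 59.7 at E17.5. All 16 were above 0 in every library, and 13 were higher in every P14 library than in every E17.5 library. Smooth muscle markers in P14 replicate 1 summed to 30.0% of the mean of the other P14 libraries and enteric neuron markers to 34.5%. Across the 11 smooth muscle genes the sum was 2935 to 11275 FPKM at P14 and 5030 to 5512 at E17.5, although Tagln, a defining marker of that list, did not exceed 1.19 FPKM in any library. For these reasons the tests of FGF genes and the counts over gene lists are also given without P14 replicate 1. The named genes of the pathway lists that passed with all libraries passed in the same direction without it. In bulk tissue, fewer cells of a type and less RNA per cell cannot be told apart.

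Among the 10 genes, 1 passed the test of P14 against E17.5: Fgf10, a ligand of the mesenchyme, was lower at P14. Fgf9, a ligand of epithelium and mesothelium, was lower in every P14 library than in every E17.5 library and did not pass with all libraries, but did when P14 replicate 1 was left out. Both highly expressed receptors, Fgfr1 and Fgfr2, overlapped their E17.5 levels in P14 replicates 2, 3 and 4 and were lower in P14 replicate 1. The test was limma on log2(FPKM + 1), with Benjamini-Hochberg adjustment over 14044 genes and a threshold of 0.05, and 9 of the 10 genes had an FPKM of at least 1 in 4 or more libraries and entered it. Of these 9, 0 were called higher and 1 lower by limma, where 24.7% of all tested genes were called, 9.72% higher and 15% lower. At an unadjusted p under 0.05 by limma Fgf9 and Fgf10 passed, both lower, as did 5498 of all 14044 tested genes in either direction. Without P14 replicate 1, 0 were called higher and 2 lower by limma, where 49.5% of all tested genes were called, 22.6% higher and 26.9% lower. Limma-voom on recovered reads called 0 higher and 1 lower, where 24.4% of all tested genes were called, 9.04% higher and 15.3% lower. All P14 libraries lay below all E17.5 libraries for 2 of the 10 genes, as for 20.4% of tested genes, and above them for 0, as for 15.6%. Without P14 replicate 1 the P14 libraries lay below for the same 2 genes, Fgf9 and Fgf10, as for 29.7% of tested genes, and above for Fgf2. The median log2 fold change of the 9 genes was -0.23, and 0.05 without P14 replicate 1, against 0.0022 and -0.03 for all tested genes.

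**Figure D1:**
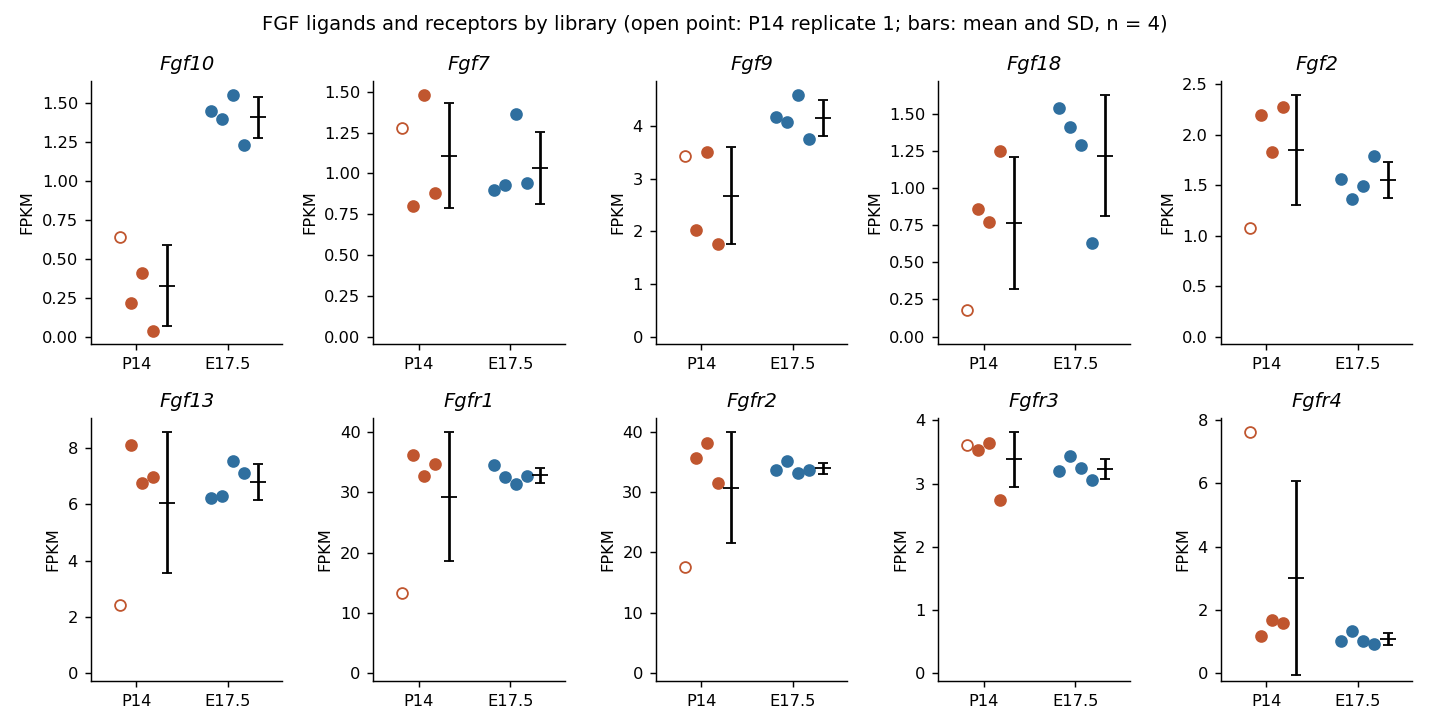
FPKM of the 10 FGF genes in every library, P14 on the left and E17.5 on the right of each panel, each panel with its own linear axis. Points are libraries, the open point is P14 replicate 1, and the bars give mean and SD (n = 4). The groups are separate for Fgf10 and Fgf9 and overlap for the other genes, and P14 replicate 1 is the lowest P14 library for Fgf18, Fgf2, Fgf13, Fgfr1 and Fgfr2 and the highest for Fgf10 and Fgfr4.

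Fgf10 encodes a ligand that mesenchyme sends to the epithelial form of FGFR2 in many budding organs. The gene (gene 14165, chromosome 13, 118851235 to 118929109 on GRCm39, plus strand) was at 0.639, 0.216, 0.408 and 0.0343 FPKM in P14 replicates 1 to 4, against 1.45, 1.40, 1.55 and 1.23 FPKM in the 4 E17.5 libraries in order. Every P14 library was below every E17.5 library, and the P14 libraries differed widely among themselves. The mean at P14 was 0.325 ± 0.260 FPKM, against 1.41 ± 0.132 FPKM at E17.5 (SD, n = 4 each), a ratio of 0.231. These levels rest on 41, 18, 35 and 3 reads in P14 replicates 1 to 4 and on 111 to 134 reads in the E17.5 libraries. For the 3 reads of P14 replicate 4 the 95% Poisson interval is 0.619 to 8.77 reads, which covers counting error only. The log2 fold change was -0.88 (SE 0.150, limma adjusted p = 0.00578), and -0.99 without P14 replicate 1 (SE 0.135, adjusted p = 0.000612).

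Fgf10 passed the filter on low values through the E17.5 libraries alone, with 4 of 4 at 1 FPKM or more there and 0 of 4 at P14. In the fit of all genes with no such filter its adjusted p by limma was 0.0149. The added pseudocount also makes its fold change smaller than that of the reads themselves: limma-voom on the recovered reads gave a log2 fold change of -2.74 (SE 0.651, adjusted p = 0.0195).

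Fgf7 encodes the closest relative of FGF10, a ligand of the same epithelial receptor form. The gene (gene 14178, chromosome 2, 125876578 to 125933105, plus strand) was at 1.28, 0.80, 1.48 and 0.88 FPKM in P14 replicates 1 to 4, against 0.897, 0.927, 1.36 and 0.94 FPKM in the 4 E17.5 libraries in order. The groups overlapped throughout, and P14 replicates 1 and 3 were the highest of their age. The means were 1.11 ± 0.323 FPKM at P14 and 1.03 ± 0.221 FPKM at E17.5 (SD, n = 4 each), from 39 to 74 reads per library. Only 3 of the 8 libraries reached 1 FPKM, so Fgf7 was not in the main test, and without the filter its log2 fold change was 0.05 (SE 0.144, limma adjusted p = 0.84). Fgf7 lies wholly inside Fam227b, a gene of the opposite strand that did not exceed 0.0797 FPKM in any library.

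The sequences just before the start of Fgf10 and Fgf9, the ligands that were lower in every P14 library, are shown beside that of Fgf7, whose groups overlapped. Each is the 250 bases upstream of the RefSeq start, on the plus strand of GRCm38.p6, an older build than the one used for the gene positions above. They lie at chr13:118714449-118714698 for Fgf10, chr14:58072436-58072685 for Fgf9 and chr2:126034408-126034657 for Fgf7. Capitals mark any match on either strand. The motifs searched were the TATA box, spelled TATAAA, the GC box, spelled GGGCGG, and the CCAAT box, named for its letters.
Fgf10: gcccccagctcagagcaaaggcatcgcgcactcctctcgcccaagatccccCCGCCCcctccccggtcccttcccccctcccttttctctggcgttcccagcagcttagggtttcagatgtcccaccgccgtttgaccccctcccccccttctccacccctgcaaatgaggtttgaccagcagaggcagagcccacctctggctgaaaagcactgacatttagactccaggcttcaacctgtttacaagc
Fgf9: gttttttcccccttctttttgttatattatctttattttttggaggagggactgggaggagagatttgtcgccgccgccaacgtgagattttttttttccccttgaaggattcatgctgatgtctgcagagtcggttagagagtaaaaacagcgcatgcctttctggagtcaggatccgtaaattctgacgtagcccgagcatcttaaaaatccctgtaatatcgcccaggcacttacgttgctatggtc
Fgf7: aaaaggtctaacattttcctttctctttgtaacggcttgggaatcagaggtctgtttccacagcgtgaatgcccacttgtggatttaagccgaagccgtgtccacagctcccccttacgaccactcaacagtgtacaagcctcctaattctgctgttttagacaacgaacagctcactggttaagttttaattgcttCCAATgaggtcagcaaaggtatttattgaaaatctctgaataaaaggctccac

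The Fgf10 window was 61.2% G and C with 8 CpG pairs and 1 GC box. That of Fgf9 was 44.8% G and C with 11 CpG pairs and none of the 3 motifs, and that of Fgf7 was 43.6% with 6 CpG pairs and 1 CCAAT box. Among 32851 windows of the same length in the table, the median was 52.4% G and C and 6 CpG pairs, and 12.4% held the TATA box, 32.7% the GC box and 33.8% the CCAAT box. The motifs do not overlap each other in the windows shown. These matches describe the letters only, and 9 of the 10 FGF genes, all but Fgfr1, matched the RefSeq promoter table.

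Fgf9 encodes a ligand that epithelium and mesothelium send to the mesenchymal forms of the receptors, and mouse fetuses without it have a short small intestine. The gene (gene 14180, chromosome 14, 58308131 to 58350311, plus strand) was at 3.44, 2.03, 3.51 and 1.76 FPKM in P14 replicates 1 to 4, against 4.19, 4.08, 4.59 and 3.76 FPKM in the 4 E17.5 libraries in order. The groups did not overlap, and within P14 the libraries fell into a higher pair, replicates 1 and 3, and a lower pair, replicates 2 and 4. The means were 2.68 ± 0.916 FPKM at P14 and 4.15 ± 0.341 FPKM at E17.5 (SD, n = 4 each), a ratio of 0.646. With all libraries the log2 fold change was -0.52 (SE 0.185, limma adjusted p = 0.0753) and did not pass. Without P14 replicate 1 it was -0.62 (SE 0.164, adjusted p = 0.0142), and after rescaling to TPM, which moved the median of all tested genes to -0.18, it was -0.79 (SE 0.213, adjusted p = 0.0305). Of 6 mesothelium markers 1, Krt19, is also an epithelial keratin and made up 163 FPKM in P14 replicate 1. The other 5 summed to 20.1 FPKM in P14 replicate 1, 123 to 157 FPKM in the other P14 libraries and 57.3 to 100.1 FPKM at E17.5. Their part in the Fgf9 level was not tested.

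Fgf10 and Fgf9 had the same pair of P14 libraries on top, replicates 1 and 3, and a comparison chosen after this was seen shows which marker genes did so too. All 16 pan-epithelial markers and 5 of 7 subepithelial fibroblast markers had replicates 1 and 3 as the highest P14 libraries, against 24.1% of all tested genes and 5 of the 10 FGF genes, which were Fgf7, Fgf9, Fgf10, Fgfr3 and Fgfr4. So did 2 of 7 macrophage markers and 1 of 6 mesothelium markers, Krt19, which is also among the 16 pan-epithelial markers. None of the smooth muscle, enteric neuron, glia, interstitial cell of Cajal, endothelial or adventitial fibroblast markers did, and neither did those of B, plasma, T and NK cells. Of the FGF genes, Fgf9 and Fgf10 had this order by the way it was chosen. Fgfr3 had it narrowly, at 3.62 and 3.64 FPKM against 3.53 FPKM in P14 replicate 2. Among tested genes whose P14 libraries all lay below E17.5, 11.4% had this order. Foxl1, a transcription factor of subepithelial cells, was at 1.95, 0.926, 2.51 and 0.777 FPKM in P14 replicates 1 to 4, against 16.5 to 27.6 FPKM at E17.5. Bmp5, a BMP ligand of the same cells, was at 14.9, 4.39, 12.8 and 4.19 FPKM in P14 replicates 1 to 4, against 27.1 to 35.4 FPKM at E17.5. Bmp7, Dll1 and Sox6, subepithelial fibroblast markers that also had this order, overlapped between the ages. F3 and Pdgfra of the same list lacked it and were lowest in P14 replicate 1. F3 was at 13.2 FPKM there and 32.03 to 42.95 FPKM in the other P14 libraries, against 25.3 to 29.9 FPKM at E17.5. Pdgfra was at 23.7 FPKM there and 34.5 to 41.04 FPKM in the others, against 54.1 to 64.3 FPKM at E17.5. Of the 6 tested genes of that list, 3 were called lower and none higher by limma, and 4 lower and 1 higher without P14 replicate 1. The part of subepithelial cells and of epithelium in the levels of Fgf10 and Fgf9 was not tested.

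Fgf18 encodes a ligand best known from skeletal and lung development. The gene (gene 14172, chromosome 11, 33066970 to 33097400, minus strand) was at 0.179, 0.861, 0.77 and 1.25 FPKM in P14 replicates 1 to 4, against 1.54, 1.41, 1.29 and 0.63 FPKM in the 4 E17.5 libraries in order. The groups overlapped because E17.5 replicate 4 was below 3 of the P14 libraries. Fgf18 rests on few reads, 4 in P14 replicate 1 and 20 to 47 in the other libraries. The means were 0.764 ± 0.441 FPKM at P14 and 1.22 ± 0.404 FPKM at E17.5 (SD, n = 4 each), and the log2 fold change of -0.35 (SE 0.225) did not pass by limma (adjusted p = 0.286, and 0.459 without P14 replicate 1). The 95% interval, from -0.86 to 0.17, leaves room for a sizeable decrease.

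Fgf2, or basic FGF, encodes a ligand without a classical secretion signal that binds several FGF receptors. The gene (gene 14173, chromosome 3, 37402616 to 37464255, plus strand) was at 1.08, 2.19, 1.83 and 2.28 FPKM in P14 replicates 1 to 4, against 1.57, 1.36, 1.49 and 1.78 FPKM in the 4 E17.5 libraries in order. P14 replicate 1 was the lowest library of all, and the other P14 libraries were all above the E17.5 libraries. That order without P14 replicate 1 was shared by 24.8% of tested genes. Fgf2 did not pass the test with all libraries (log2 fold change 0.14, SE 0.160, limma adjusted p = 0.556) or without P14 replicate 1 (0.28, SE 0.105, adjusted p = 0.0544). Its end overlaps Nudt6 on the opposite strand over 5130 bases. Nudt6 was at 0.513 ± 0.0381 FPKM at P14 and 0.264 ± 0.0849 FPKM at E17.5 (SD, n = 4 each), and since no source used here says that counting used strand, reads of the overlap cannot be assigned to either gene with certainty.

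Fgf13 belongs to the FGF family by sequence but encodes an intracellular protein, best known as a partner of voltage-gated sodium channels in neurons. The gene (gene 14168, chromosome X, 58107499 to 58630932, minus strand) had the highest mean FPKM of the 6 ligand-family genes at both ages, although Fgf9 was higher in P14 replicate 1. It was at 2.42, 8.10, 6.76 and 6.98 FPKM in P14 replicates 1 to 4, against 6.24, 6.30, 7.54 and 7.10 FPKM in the 4 E17.5 libraries in order. P14 replicate 1 was far below the rest, at 33.3% of the mean of the other P14 libraries, and the other 7 libraries overlapped. The log2 fold change was -0.23 (SE 0.293, limma adjusted p = 0.592) with all libraries and 0.09 (SE 0.0957, adjusted p = 0.475) without P14 replicate 1, so its sign turned on that library. Summed enteric neuron markers, 15 genes, were at 205 FPKM in P14 replicate 1, 526 to 690 FPKM in the other P14 libraries and 413 to 471 FPKM at E17.5. Of these genes limma called 1 higher and 1 lower, and 7 higher and 1 lower without P14 replicate 1. In P14 replicate 1 Ret was at 197% of the mean of the other P14 libraries, and the other neuron markers were at 25.3% to 41.8%. Of 12 sodium channel genes, 6 were tested and 0 were called by limma with all libraries. By limma without P14 replicate 1, 3 rose and 0 fell, where 22.6% of all tested genes were called higher and 26.9% lower. Scn11a, named after its values were seen, was below the filter. It was at 0.996, 2.69, 1.81 and 2.12 FPKM in P14 replicates 1 to 4, against 0.237 to 0.373 FPKM at E17.5. Without the filter its log2 fold change was 1.14 (SE 0.186, limma adjusted p = 0.0123).

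**Figure D2:**
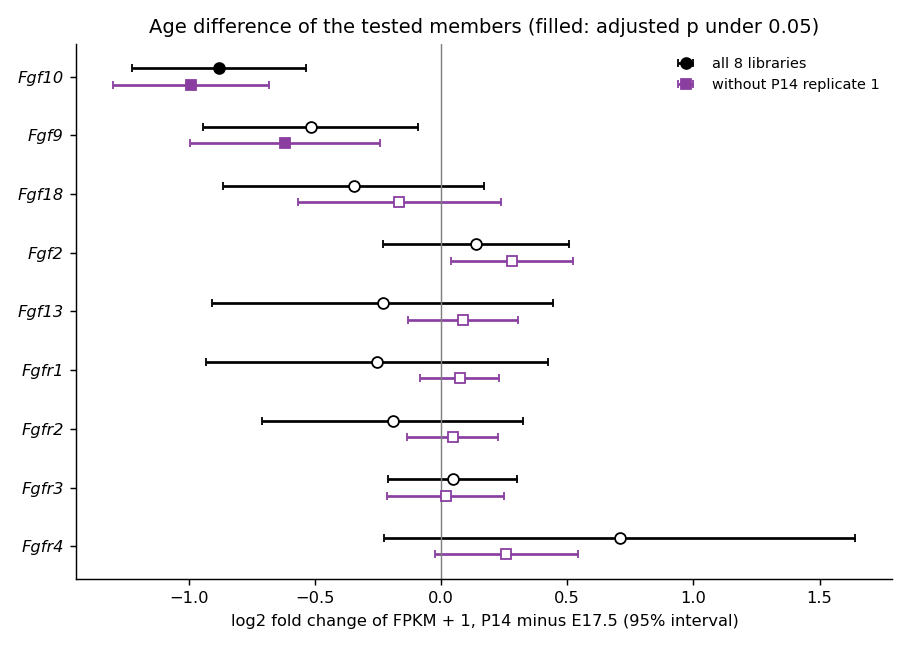
Log2 fold change of FPKM + 1, P14 minus E17.5, of the 9 tested FGF genes with 95% intervals from limma, for all 8 libraries (circles) and without P14 replicate 1 (squares). Filled symbols have an adjusted p under 0.05. Fgf10 is filled in both fits and Fgf9 only without P14 replicate 1, and the intervals of Fgfr1, Fgfr2 and Fgf13 narrow around 0 when that library is left out.

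Fgfr1 and Fgfr2 were by far the highest of the 10 genes. FGFR1 is the main receptor of many mesenchymal cells, and FGFR2 has an epithelial form that receives FGF7 and FGF10 and a mesenchymal form that receives FGF9. Fgfr1 (gene 14182, chromosome 8, 26008775 to 26065734, plus strand) was at 13.4, 36.2, 32.8 and 34.8 FPKM in P14 replicates 1 to 4, against 34.5, 32.6, 31.4 and 32.8 FPKM in the 4 E17.5 libraries in order. Fgfr2 (gene 14183, chromosome 7, 129764181 to 129868538, minus strand) was at 17.6, 35.6, 38.2 and 31.5 FPKM in P14 replicates 1 to 4, against 33.7, 35.2, 33.2 and 33.6 FPKM in the 4 E17.5 libraries in order. For both genes P14 replicate 1 was the lowest library, at 38.6% of the mean of the other P14 libraries for Fgfr1 and 50.2% for Fgfr2, and the other 7 libraries overlapped.

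Neither receptor passed the test with all libraries, with log2 fold changes of -0.25 for Fgfr1 (SE 0.295, limma adjusted p = 0.555) and -0.19 for Fgfr2 (SE 0.225, adjusted p = 0.557). Without P14 replicate 1 the signs turned. Fgfr1 was then at 34.6 ± 1.70 FPKM at P14 (SD, n = 3) and 32.8 ± 1.30 FPKM at E17.5 (SD, n = 4), a log2 fold change of 0.07 with a 95% interval from -0.08 to 0.23. Fgfr2 was at 35.1 ± 3.35 FPKM at P14 (SD, n = 3) and 33.9 ± 0.877 FPKM at E17.5 (SD, n = 4), a log2 fold change of 0.05 with a 95% interval from -0.14 to 0.23. With that library left out, changes of this receptor pair larger than those bounds are outside the intervals. The ratio of Fgfr1 to Fgfr2, which library scaling cannot affect, was 0.757, 1.02, 0.86 and 1.10 in P14 replicates 1 to 4, against 0.926 to 1.03 at E17.5.

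Fgfr3, which is known in the intestine from crypt epithelium, was an order of magnitude lower and kept the narrowest range. The gene (gene 14184, chromosome 5, 33879068 to 33894412, plus strand) was at 3.62, 3.53, 3.64 and 2.74 FPKM in P14 replicates 1 to 4, against 3.19, 3.44, 3.24 and 3.05 FPKM in the 4 E17.5 libraries in order. P14 replicate 4 was the lowest library and the other P14 libraries were just above the E17.5 range. The log2 fold change was 0.05 (SE 0.111, limma adjusted p = 0.787), with a 95% interval from -0.21 to 0.30, and it was -0.12 after rescaling to TPM.

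Fgfr4 encodes the receptor through which FGF15, a hormone of ileal enterocytes, acts on the liver. The gene (gene 14186, chromosome 13, 55300631 to 55316572, plus strand) was at 7.61, 1.18, 1.67 and 1.59 FPKM in P14 replicates 1 to 4, against 1.03, 1.34, 1.01 and 0.913 FPKM in the 4 E17.5 libraries in order. P14 replicate 1 stood 5.15-fold above the mean of the other P14 libraries, and P14 replicate 2 lay within the E17.5 range. That library was also the highest in summed pan-epithelial markers, and P14 replicate 2, the lowest P14 library for Fgfr4, was the lowest P14 library in them. With all libraries the log2 fold change was 0.71 (SE 0.405, limma adjusted p = 0.23), and without P14 replicate 1 it was 0.26 (SE 0.124, adjusted p = 0.115). The part of the remaining epithelium in the Fgfr4 level was not tested.

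The makeup of the receptors differed in the same library. Fgfr4 made up 18.0% of the summed FPKM of the 4 receptors in P14 replicate 1, 1.54% to 2.25% in the other P14 libraries and 1.30% to 1.85% at E17.5. Fgfr1 made up 31.6% in P14 replicate 1, 43.0% to 49.2% in the other P14 libraries and 44.9% to 47.7% at E17.5. The summed level of the 4 receptors was 42.2 FPKM in P14 replicate 1, 70.6 to 76.5 FPKM in the other P14 libraries and 68.8 to 72.5 FPKM at E17.5. Outside P14 replicate 1, then, Fgfr1 and Fgfr2 supplied nearly all receptor transcripts at both ages.

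**Figure D3:**
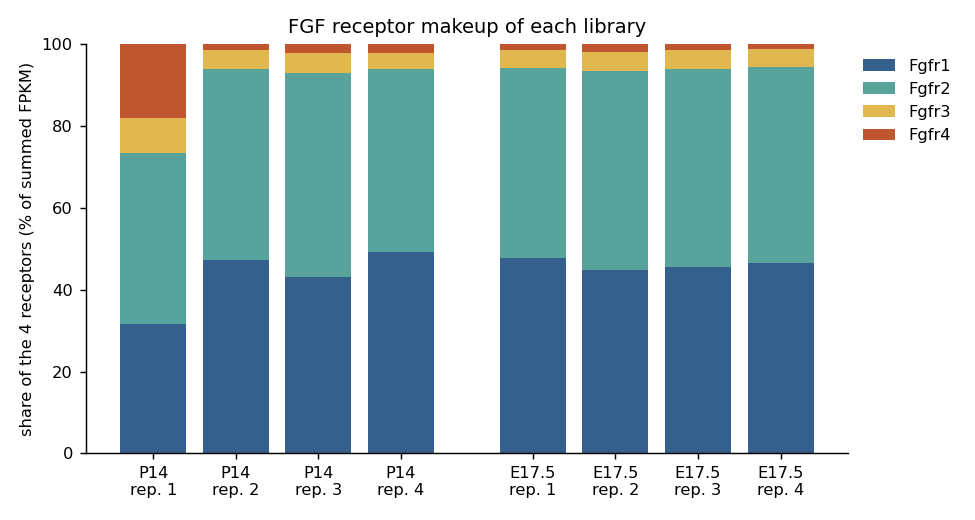
Share of each receptor gene in the summed FPKM of Fgfr1, Fgfr2, Fgfr3 and Fgfr4, in percent, for each library, with P14 replicates 1 to 4 on the left and E17.5 replicates 1 to 4 on the right. In P14 replicate 1 Fgfr4 holds 18.0% and Fgfr1 31.6%, while the other 7 bars are alike.

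Placed in order of their FPKM at E17.5, the genes ran Fgfr2, Fgfr1, Fgf13, Fgf9, Fgfr3, Fgf2, Fgf10, Fgf18, Fgfr4 and Fgf7. Fgfr2 and Fgfr1 overlapped between libraries, and so did the neighbours from Fgf2 down to Fgf7, whose E17.5 means lay between 1.03 and 1.55 FPKM. Fgf13, Fgf9 and Fgfr3 each stood clear of their neighbours at E17.5. In P14 replicates 2 to 4 the order of the means was Fgfr2, Fgfr1, Fgf13, Fgfr3, Fgf9, Fgf2, Fgfr4, Fgf7, Fgf18 and Fgf10. Fgf10 was the lowest there, at 0.220 ± 0.187 FPKM (SD, n = 3), and Fgfr3 and Fgf9 overlapped. Of the summed FPKM of the 6 ligand-family genes, Fgf10 made up 7.08% in P14 replicate 1, 0.26% to 2.77% in the other P14 libraries and 7.96% to 9.12% at E17.5.

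Read apart, P14 replicate 1 divided the 10 genes. Relative to the mean of the other P14 libraries, Fgf18 was at 18.7%, Fgf13 at 33.3%, Fgfr1 at 38.6%, Fgfr2 at 50.2% and Fgf2 at 51.5%. Summed markers of smooth muscle, neurons, glia, interstitial cells of Cajal, adventitial fibroblasts and blood endothelium were at 30.0% to 49.2% in the same library. Fgfr3 was at 109%, Fgf7 at 122%, Fgf9 at 141%, Fgf10 at 291% and Fgfr4 at 515%. Summed pan-epithelial markers were at 1440%. Some other sums turned on 1 gene when the gene highest in P14 replicate 1, chosen after the sums were seen, was left out. Subepithelial fibroblast markers were at 78.0% without Bmp7 (145% with it) and macrophage markers at 74.1% without Csf1r (117% with it). Mesothelium markers were at 14.2% without Krt19 (89.1% with it). The remaining sums did not turn. B and plasma cell markers were at 163% (157% without Cd79a) and T and NK cell markers at 152% (175% without Trbc2). Lymphatic endothelial markers were at 67.6% (60.5% without Lyve1). The scaling used by the authors differed for this library too, since its effective library size was 0.78 times the assigned reads and above the assigned reads in the others, which raises all of its FPKM values alike.

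**Figure D4:**
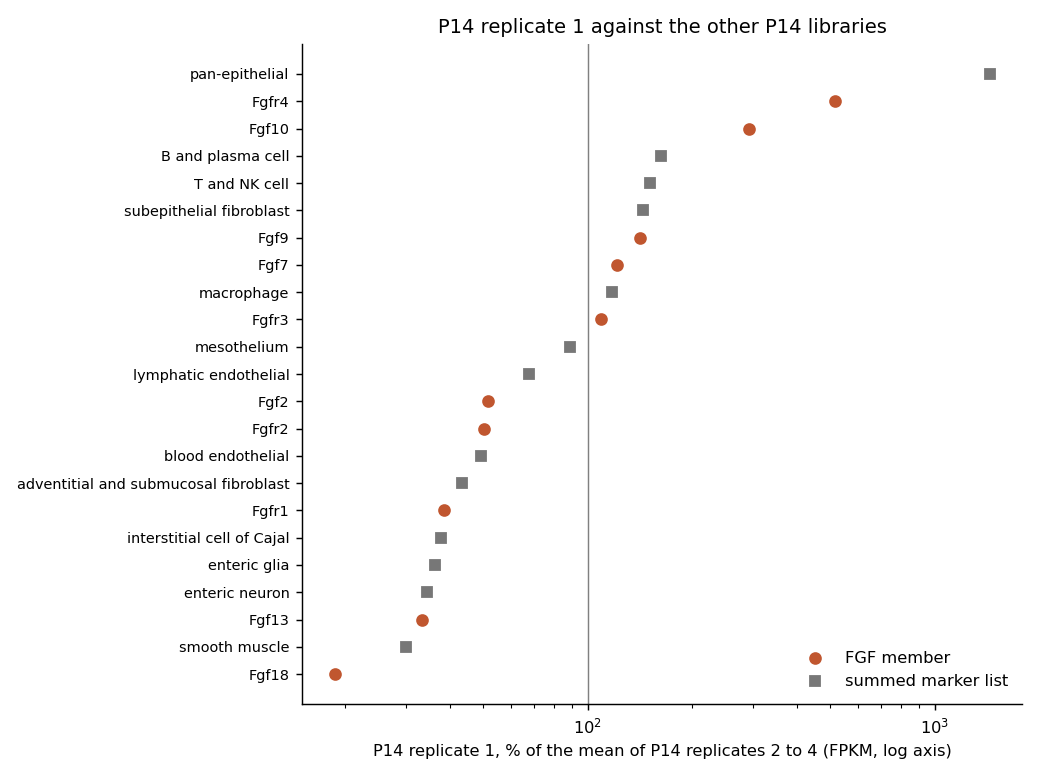
Level in P14 replicate 1 as a percentage of the mean of P14 replicates 2 to 4, on a log axis, for each FGF gene (circles) and for the summed FPKM of each marker list (squares). Fgf18, Fgf13, Fgfr1, Fgfr2 and Fgf2 lie at 18.7% to 51.5%, and Fgfr4 (515%) and Fgf10 (291%) are above all lists except the pan-epithelial markers (1440%). The squares of mesothelium, macrophages and subepithelial fibroblasts rest on Krt19, Csf1r and Bmp7, without which they would lie at 14.2%, 74.1% and 78.0%.

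The other genes of the pathway were read from lists that hold no member. Their counts stand beside those of all tested genes, of which limma called 9.72% higher and 15% lower, and 22.6% higher and 26.9% lower without P14 replicate 1. Of 16 further FGF ligand genes, 14 were below the filter and 2 were tested. Fgf1, which encodes acidic FGF and can bind all of the receptors, was at 1.11, 2.96, 2.20 and 2.44 FPKM in P14 replicates 1 to 4, against 0.791, 0.711, 0.711 and 0.801 FPKM in the 4 E17.5 libraries in order. It rose, with every P14 library above every E17.5 library (log2 fold change 0.82, SE 0.188, limma adjusted p = 0.0178). Fgf1 passed the filter through the P14 libraries alone, with 4 of 4 at 1 FPKM or more there and 0 of 4 at E17.5, and without the filter its adjusted p was 0.0414. Leaving out E17.5 replicate 2 or 3 ended the call (adjusted p = 0.0509 and 0.056), and so did rescaling to TPM (0.0533). Fgf11, an intracellular relative of Fgf13, had means of 3.02 ± 1.11 FPKM at P14 and 2.94 ± 0.373 FPKM at E17.5 (SD, n = 4 each; adjusted p = 0.962).

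Fgf15 and Klb, named after their values were seen, belong to the hormone arm of the family, in which KLB is the co-receptor that lets FGFR4 bind FGF15. Fgf15 was at 13.6, 0.0909, 3.10 and 3.96 FPKM in P14 replicates 1 to 4, and at E17.5 it had 1 read in replicate 3 and 0 reads in the others, where a count of 0 allows up to 3 reads per library. Klb was at 1.85, 0.0515, 0.109 and 0.196 FPKM in P14 replicates 1 to 4, against 0.033 to 0.106 FPKM at E17.5. Both were below the filter. Like Fgfr4, they were highest in P14 replicate 1 and lowest of the P14 libraries in replicate 2.

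Among 11 co-receptors and FGF-binding proteins, 8 were tested, of which 1 rose and 1 fell by limma (3 and 3 without P14 replicate 1). Flrt2, a membrane protein that can bind FGF receptors, fell to 3.31 ± 1.41 FPKM at P14, against 7.95 ± 0.564 FPKM at E17.5 (SD, n = 4 each; log2 fold change -1.13, SE 0.271, adjusted p = 0.0209). Leaving out E17.5 replicate 2, 3 or 4 ended its call (adjusted p 0.0551 to 0.0618). Fgfbp3, a carrier of FGF2, rose to 2.80 ± 0.331 FPKM at P14, against 1.72 ± 0.459 FPKM at E17.5 (SD, n = 4 each; 0.49, SE 0.146, adjusted p = 0.0421), and leaving out any library but E17.5 replicate 2 or P14 replicate 1 ended that call (0.0637 to 0.116). Ncam1, a neural adhesion protein and the gene of the list with the highest mean over all 8 libraries, was at 11.5 ± 4.15 FPKM at P14 and 19.6 ± 0.757 FPKM at E17.5 (SD, n = 4 each; adjusted p = 0.0622, and 0.0009 without P14 replicate 1).

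Heparan sulfate is the sugar that FGFs need to bind their receptors. All 21 proteoglycan and enzyme genes were tested, of which 2 rose, 9 fell and 10 did not pass by limma (4, 11 and 6 without P14 replicate 1), where 9.72% of all tested genes were called higher and 15% lower (22.6% and 26.9% without that library). Their median log2 fold change was -0.34, against 0.0022 for all tested genes. Hs6st2, 1 of the 9 decreases, passed the filter through the E17.5 libraries alone, with 0 of 4 P14 libraries at 1 FPKM or more. Without the filter its limma adjusted p was 0.0144. Sulf2, an enzyme that removes sulfate from heparan sulfate at the cell surface, was at 31.1 FPKM in P14 replicate 1 and 16.2 to 16.5 FPKM in the other P14 libraries, against 43.1 to 55.0 FPKM at E17.5, and fell by 1.31 (SE 0.217, adjusted p = 0.0053). The glypicans Gpc6 and Gpc3, proteins that carry the sugar on the membrane, fell by 1.30 (SE 0.119, adjusted p = 0.000695) and by 0.83 (SE 0.132, adjusted p = 0.00459). Gpc3, the highest gene of the list, was at 106 ± 19.6 FPKM at P14 and 188 ± 5.89 FPKM at E17.5 (SD, n = 4 each). Sdc4, a syndecan, went the other way, at 97.9, 33.1, 44.9 and 37.3 FPKM in P14 replicates 1 to 4 against 18.6 ± 1.36 FPKM at E17.5 (SD, n = 4; log2 fold change 1.34, SE 0.311, adjusted p = 0.019). Leaving out E17.5 replicate 3 or 4 ended the call of Sdc4 (adjusted p = 0.0598 and 0.053). Hs3st1, a sulfotransferase named because it was the other increase, rose by 0.62 (SE 0.144, adjusted p = 0.0191), a call that leaving out E17.5 replicate 3 ended (0.059).

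Among 22 adaptors and kinases from the receptor to ERK, 1 rose, 6 fell and 15 did not pass by limma (4, 10 and 8 without P14 replicate 1). Of all tested genes 9.72% were called higher and 15% lower, and 22.6% and 26.9% without that library. Cbl, a ubiquitin ligase that turns receptors over, fell by 0.60 (SE 0.137, adjusted p = 0.018), a call that leaving out E17.5 replicate 2 or 3 ended (0.0556 and 0.0537). Plcg1, a phospholipase that binds activated FGF receptors directly, fell by 0.57 (SE 0.107, adjusted p = 0.0084). Mapk3, the gene of ERK1 and the highest of the list, was at 259, 137, 131 and 120 FPKM in P14 replicates 1 to 4, against 104 to 128 FPKM at E17.5 (adjusted p = 0.197). The only increase was Araf, a RAF kinase named for that reason (0.33, SE 0.104, adjusted p = 0.0489). Leaving out any library but P14 replicate 1 ended its call (0.0586 to 0.13), and after rescaling to TPM its log2 fold change was 0.16 (0.309).

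FGF and ERK signalling also switches on its own inhibitors. Of 12 genes listed as inhibitors of the pathway, 11 were tested. By limma 1 rose, 6 fell and 4 did not pass, with the same counts without P14 replicate 1. Rasa1, 1 of the 6 decreases, stands in the list as an inhibitor, not as a gene that the signalling switches on (log2 fold change -0.65, SE 0.109, limma adjusted p = 0.00551). Among all tested genes 15% were called lower, and 26.9% without that library. The median log2 fold change of the 11 genes was -0.65, the value of Rasa1, against 0.0022 for all tested genes. Dusp6, an ERK phosphatase widely used as a readout of FGF signalling, was at 14.2, 18.7, 19.2 and 20.6 FPKM in P14 replicates 1 to 4, against 38.2, 38.2, 46.7 and 43.7 FPKM in the 4 E17.5 libraries in order (log2 fold change -1.16, SE 0.137, adjusted p = 0.00156). Spred1, an inhibitor of RAF activation, fell by 1.15 (SE 0.113, adjusted p = 0.000812) and Dusp4, a second phosphatase, by 1.02 (SE 0.164, adjusted p = 0.00469). Every P14 library lay below every E17.5 library for these 3 genes.

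The Sprouty genes, inhibitors of the RAS and ERK cascade, divided. Spry1, the gene of the list with the highest mean over all 8 libraries, was at 15.6, 40.7, 39.7 and 40.5 FPKM in P14 replicates 1 to 4, against 39.4, 39.1, 34.5 and 39.4 FPKM in the 4 E17.5 libraries in order, and did not pass (log2 fold change -0.25, SE 0.296, limma adjusted p = 0.566, and 0.08 without P14 replicate 1). Spry2 and Spry4, named after their values were seen, fell by 0.76 (SE 0.189, adjusted p = 0.023) and by 0.90 (SE 0.239, adjusted p = 0.0302). Spry2 was not called without E17.5 replicate 1, 2 or 3 (adjusted p 0.0596 to 0.07), and leaving out P14 replicate 3 or any E17.5 library ended the call of Spry4 (0.0585 to 0.0896). The increase of the list was Dusp5, a phosphatase that keeps ERK in the nucleus (0.69, SE 0.171, adjusted p = 0.0229), and leaving out replicate 3 or 4 of either age ended its call (0.0501 to 0.0743).

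Of 8 genes that ERK signalling is known to switch on, 7 were tested, of which 0 rose and 1 fell by limma with all libraries, and 0 rose and 2 fell without P14 replicate 1. Of all tested genes 15% were called lower, and 26.9% without that library. Etv1, Etv4 and Etv5, named after their values were seen, were not called with all libraries (limma adjusted p = 0.542, 0.211 and 0.0699). Etv5 was called lower without P14 replicate 1 (0.0198). The decrease with all libraries was Ccnd1, the cyclin D1 gene of the cell cycle, at 18.6 ± 2.71 FPKM at P14 and 49.9 ± 1.76 FPKM at E17.5 (SD, n = 4 each; log2 fold change -1.39, SE 0.122, adjusted p = 0.000651). Summed markers of other cell types went both ways. In P14 replicates 2 to 4 smooth muscle markers summed to 8033 to 11275 FPKM, against 5030 to 5512 FPKM at E17.5. Adventitial and submucosal fibroblast markers summed to 498 to 520 FPKM there, against 329 to 365 FPKM at E17.5, but their genes divided. Of the 7 tested, limma called 2 higher and 0 lower, and 3 higher and 2 lower without P14 replicate 1. The sums of glia and interstitial cell of Cajal markers were also higher in P14 replicates 2 to 4, and all of these sums were below E17.5 in P14 replicate 1. Blood endothelial markers, 7 genes, summed to 188 to 412 FPKM at P14 and 537 to 568 FPKM at E17.5. Of these, limma called 6 lower, and 6 lower and 1 higher without P14 replicate 1. Lymphatic endothelial markers, 5 genes, summed to 28.1 to 47.1 FPKM at P14 and 99.5 to 110 FPKM at E17.5. Macrophage markers, 7 genes, summed to 142 to 219 FPKM at P14 and 335 to 387 FPKM at E17.5. All of these genes were above 0 in every library, and their part in the levels of the inhibitors was not tested.

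**Figure D5:**
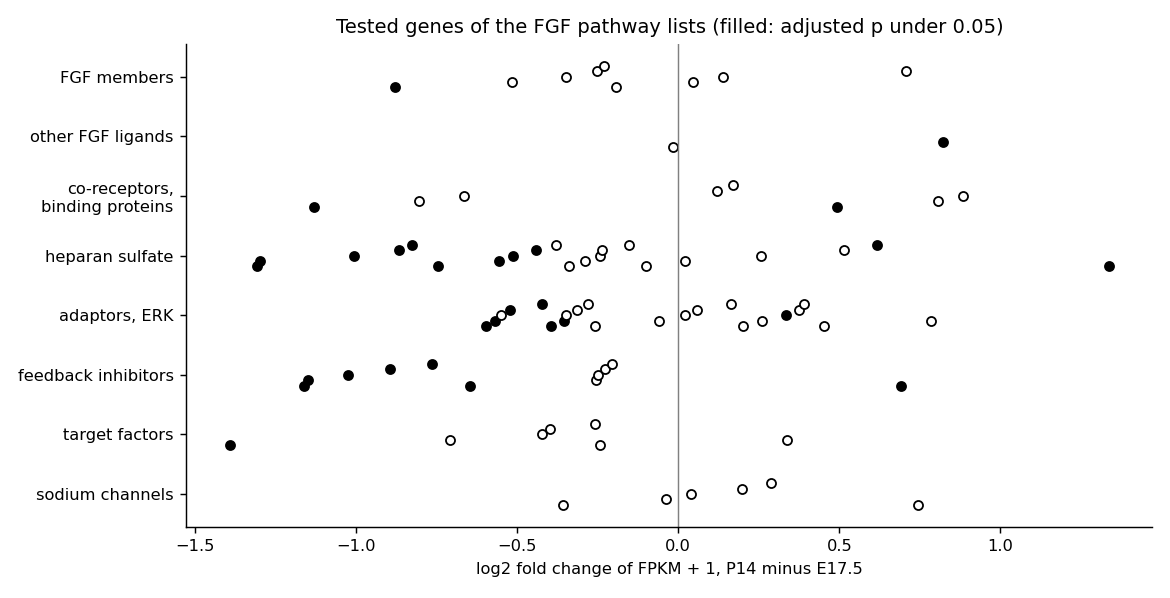
Log2 fold change of FPKM + 1, P14 minus E17.5, of every tested gene of the FGF pathway lists. Each circle is a gene, spread vertically for legibility, and filled circles have a limma adjusted p under 0.05. The feedback inhibitors, a list that includes Rasa1, have 6 filled circles left of 0 and 1 to the right, and the heparan sulfate genes 9 to the left and 2 to the right.

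Finally, each tested FGF gene was set beside the protein-coding genes whose centred log2(FPKM + 1) profile over the 8 libraries differed from it least, by the root-mean-square difference. For Fgfr1 these were Sparc, Spry1 and Rassf8, at differences of 0.0438, 0.0448 and 0.0537. Fgfr2 was nearest to Cdc25b, Pla2r1 and Cyp2d22 (0.056 to 0.0767), and Fgf13 to Pbk, Stk39 and Fam171b (0.0459 to 0.0479). Fgf9 was nearest to Adap2, at 0.0715, with Pilrb2 and Ttc30a1 at 0.118 and 0.124. Fgf10 had Jpt2, Pilrb1 and Thap2 at 0.114 to 0.124. Adding 1 to FPKM shrinks the changes of a low gene such as Fgf10, at 0.0343 to 1.55 FPKM. It hardly alters those of Jpt2, at 18.2 to 38.3 FPKM, so their likeness holds on this scale only. Fgf2 was nearest to Smad4, Paqr8 and Arl2bp (0.0579 to 0.0652), Fgf18 to Tgif2, Lingo1 and Epor (0.111 to 0.117), Fgfr3 to Trim39, Nop9 and Kif13b (0.0389 to 0.0607) and Fgfr4 to Gak, Atp6v1e1 and Ttc38 (0.0765 to 0.097). A profile over 8 libraries of 2 ages, in which P14 replicate 1 has a large part, is shared by many genes, and these are descriptions of likeness only.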

How the data were processed

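RNA was sequenced from small-intestinal mesenchyme at P14 and at E17.5, with 4 libraries per age and groups taken from the sample titles. The authors deposited FPKM values, 1 per gene and library. CASAVA, fastp, HISAT2, featureCounts, DESeq2 1.20.0 and GRCm39 appear, with no roles, per the submitters' processing notes. Strand use in counting is not stated in the sources used here. FPKM times gene length gave whole multiples of 1 step in 100% of values (tolerance 1e-06), which recovered 16660998 to 19496632 reads per library. The 302 rows without a gene name held 0.183% to 0.246% of the reads.

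Tests covered the 14044 genes that reached 1 FPKM in 4 or more of 8 libraries. They used log2(FPKM + 1) and limma 3.58.1, run in R 4.3.3 beside statmod 1.5.0, with trended and robust moderation, two-sided, with Benjamini-Hochberg adjustment over all of them and 0.05 as threshold. Fold changes are on that scale, which understates changes of low genes. Intervals are at 95%. The procedure was tested on simulated data. Members, lists and tests were chosen with earlier results of these data known. Named were all 10 members, up to 3 called genes with the largest change and the highest gene of each pathway list, and the 3 nearest profiles per tested member. Some genes that this rule names are not reported here. Alternatives covered pseudocount, filter, scaling, moderation, a replicate block, each library left out and limma-voom on recovered reads, the last added after the files were seen.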

Additional observations from a re-analysis of the deposited data

Results flagged for a closer look

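In 68 groups of 4 libraries, the values of named genes were searched for a library standing apart, meaning a gap to its nearest neighbour, as a part of the group's range, above Dixon's 95% critical value. This was so in 10 groups, and chance alone gives about 1 in 20. In 7 of the 10 the library was P14 replicate 1. It was low for Fgfr1 (13.4 FPKM, against 32.8 to 36.2 in the other P14 libraries; gap 0.852 of the range), Flrt2 (1.21 against 3.77 to 4.21; 0.852) and Spry1 (15.6 against 39.7 to 40.7; 0.958). It was high for Fgfr4 (7.61 against 1.18 to 1.67; 0.923), Sulf2 (31.1 against 16.2 to 16.5; 0.976), Mapk3 (259 against 120 to 137; 0.88) and Araf (19.6 against 16.2 to 16.7; 0.848). P14 replicate 4 was low for Fgfr3 (2.74 FPKM against 3.53 to 3.64; 0.872). E17.5 replicate 3 was high for Fgf7 (1.36 FPKM against 0.897 to 0.94 in the other E17.5 libraries; 0.909) and low for Spry1 (34.5 against 39.1 to 39.4; 0.921).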

How the results depend on the processing

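Fgf10 was called lower at P14 under all 17 alternatives in which it could be tested, with log2 fold changes of -2.74 to -0.27 and adjusted p of 0.000612 to 0.0259; requiring 1 FPKM in all 8 libraries removed it, so 0 members were called lower there. No member was called higher under any alternative. After rescaling to TPM 2 members were called lower, Fgf9 beside Fgf10, and leaving out each library in turn gave 1 to 2. Signs turned without P14 replicate 1, where leaving out each library gave log2 fold changes of -0.38 to 0.087 for Fgf13, -0.38 to 0.074 for Fgfr1, -0.31 to 0.045 for Fgfr2, -0.36 to 0.080 for Spry1 and up to 0.20 for Fgf11, with TPM for Fgfr3 (-0.12), and for Fgf11 with a pseudocount of 5 (0.0037) and without E17.5 replicate 2 (0.04); the cause was not tested. Over all tested genes 3473 were called, and 1735 (without E17.5 replicate 3) to 6958 (without P14 replicate 1) with each library left out. TPM gave 25.1% of calls as increases, against 39.3%. Replicate numbers did not pair libraries (correlations of same-numbered deviations across genes -0.0641 to 0.00947, not the highest for each library). With the replicate block 1744 genes were called, and of the members Fgf10 alone (adjusted p = 0.0259). Fgf1, Fgfbp3, Cbl, Hs3st1, Araf, Dusp5, Spry2 and Spry4 were not called under the block, and Fgfbp3, Araf, Dusp5, Spry2 and Spry4 not without the filter. Fgfbp3 (adjusted p 0.117), Araf (0.309), Hs3st1 (0.0546) and Fgf1 (0.0533) were not called with TPM, Fgfbp3 not with quantile normalization (0.0588) or voom (0.0518), and Araf not with the filter over all 8 libraries (0.0512) or plain moderation (0.0527). The 2 planned count models were not run, since the deposited unit is FPKM. Depth limits Fgf10 and Fgf18 most, at 3 and 4 reads in their lowest libraries.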
